A study of Bos taurus with 54 samples.

Results

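CIRBP and RBM3, the genes of the cold-inducible RNA-binding proteins, were taken by their symbols from the gene count files and are 2 of the 32637 genes counted there. Whole blood RNA of 15 male Holstein calves, housed in climate-controlled rooms, was sequenced from the 3′ end of transcripts with 2 library kits, SMART-Seq v4 3′ DE of Takara and QuantSeq 3′ of Lexogen. Thermoneutral control samples, labelled Normal and 6AM, were drawn before heating, and heat stress samples, labelled 6PM, were drawn at the end of 12 h of heat. Red blood cells were lysed before RNA extraction. All animals but animal 20 were sampled at both times, and the design has no evening sample without heat, so heat and time of day cannot be told apart.

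CIRBP and RBM3 encode small proteins that share an RNA recognition motif followed by a glycine-rich stretch. Both are known to rise when mammalian cells are cooled mildly and to fall when they are warmed, the opposite of the heat shock chaperones, and both bind messenger RNAs and affect their stability, translation or polyadenylation. Because body temperature follows a daily rhythm, both genes are also known to cycle over the day, and CIRBP has been linked to the core clock.

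On ARS-UCD2.0, the assembly of the count files, CIRBP (gene ID 507120) is a protein-coding gene on chromosome 7 at 43707444 to 43712194. Its span of 4751 bases overlaps the non-coding RNA gene LOC132345741 (43696886 to 43709075), which had too few counts to be tested. RBM3 (gene ID 509771) is a protein-coding gene on chromosome X at 86690789 to 86694645, spans 3857 bases and overlaps no annotated gene. Counts were unstranded, and 2.48% of the reads on CIRBP in Takara and 1.79% in Lexogen lay on the opposite strand. The same share for RBM3 was 1.23% in Takara and 3.47% in Lexogen.

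Each kit had 27 libraries. Animal 20 has 1 RNA sample, labelled heat stress, with 1 library per kit. The study's text and design table have 1 more sample before heat than after it, the reverse of the labels. The table names no animals, and read in the order of the animal numbers its times are exchanged for every animal with a missing library, not for animal 20 alone. Groups were taken from the labels, and animal 20 was kept out of the comparison between the times. This left 13 thermoneutral and 13 heat stress libraries per kit, of which 12 animals had both. Total counts on genes ranged from 5140595 to 20699030 in Takara and from 4516761 to 58521751 in Lexogen, where the next highest total was 15607291. The sample numbers in the labels fall into 2 series of different animals with a gap between them, the lower numbers (series 1, 8 animals) and the higher ones (series 2, 7 animals), and what separates them is not given in the sources used here.

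Both members fell after heat stress in Takara, to 67.8% of the mean control level for CIRBP and 62.1% for RBM3, and both fell in 12 of 12 animal pairs. In Lexogen the mean levels were 62.2% and 71.4% of the control means, but neither change passed the test. Levels are given as CPM, counts relative to the library size, which was scaled within a kit by the trimmed mean of M-values (TMM). Changes are log2 fold changes of heat stress over control, tested in edgeR by quasi-likelihood and adjusted by Benjamini-Hochberg over all genes tested. A gene was called at an adjusted p under 0.05.

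RBM3 in Takara lay between 122 and 160 CPM in the 13 control libraries, with a median of 134 CPM, and between 56.9 and 126 CPM in the 13 heat stress libraries, with a median of 82.4 CPM. The groups met in 1 heat stress library only: 12 of 13 heat stress libraries were below every control library, and animal 3 was the exception at 126 CPM. Animal 3 also had the highest control level, 160 CPM. The mean was 137 ± 11.3 CPM (SD, n = 13) in control and 85.3 ± 16.4 CPM (SD, n = 13) in heat stress samples. The log2 fold change was -0.69 (SE 0.093, 95% confidence interval -0.88 to -0.50, edgeR adjusted p = 0.000212). RBM3 had the second smallest p-value of all 12620 genes tested in Takara, and the smallest among those with a lower level.

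CIRBP in Takara lay between 99.8 and 155 CPM in control libraries, with a median of 121 CPM, and between 49.3 and 132 CPM in heat stress libraries, with a median of 82.3 CPM. Of the heat stress libraries, 11 of 13 were below every control library, and those of animals 36 and 3 were above the lowest control. Animal 36 had the highest CIRBP level at both times (155 and 132 CPM). The mean was 124 ± 16.3 CPM (SD, n = 13) in control and 84.4 ± 21.6 CPM (SD, n = 13) in heat stress samples. The log2 fold change was -0.56 (SE 0.12, 95% confidence interval -0.80 to -0.32, edgeR adjusted p = 0.00138). CIRBP ranked 45 by p-value among the genes with a lower level and 584 among all genes tested. With total counts in place of TMM the median change of all genes moved from -0.05 to -0.27, and CIRBP and RBM3 stood at -0.79 and -0.89.

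These calls stand against a background in which 10.5% of the genes tested in Takara were called lower and 18.4% higher. A lower level in all 12 pairs, seen for both members, was found for 1.21% of the genes. Complete separation, with every heat stress library below every control library, was found for 0.00792% of the genes, and neither CIRBP nor RBM3 met it. Partial separation, such as the 11 of 13 libraries of CIRBP and 12 of 13 of RBM3, was not counted over all genes. How common it was is therefore not known. With animal 20 as labelled, at heat stress, the changes were -0.60 for CIRBP and -0.74 for RBM3, and both were called. With animal 20 taken as a control they were -0.52 and -0.63 (edgeR adjusted p = 0.0547 for both), a setting in which 0 of all genes were called and 3804 had an unadjusted p under 0.05. The call of CIRBP was lost within series 2 alone (-0.44, edgeR adjusted p = 0.105).

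**Figure D1:**
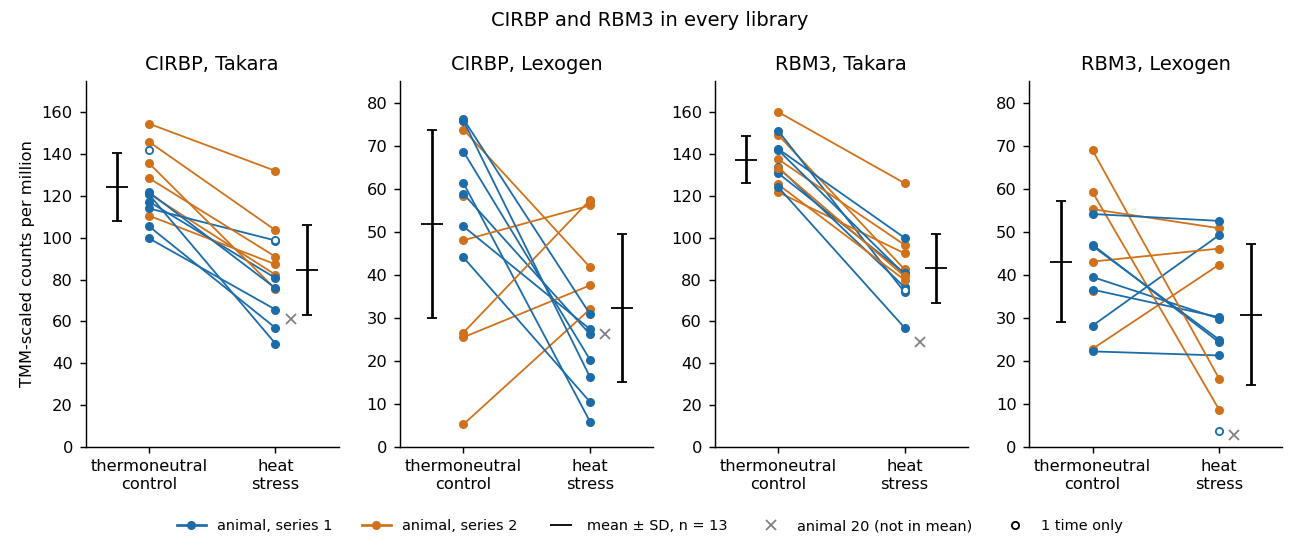
Level of CIRBP and RBM3 (TMM-scaled CPM, linear axis from 0, with a different scale for each kit) in every library, with lines joining the samples of an animal, coloured by series of sample numbers, and black bars for the mean ± SD of 13 libraries. In Takara all 12 lines fall for both genes, whereas in Lexogen 8 of 12 fall for CIRBP and 9 of 12 for RBM3; grey crosses are animal 20, drawn beside heat stress as labelled and left out of the means.

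In Lexogen CIRBP lay between 5.18 and 76.2 CPM in control libraries, with a median of 58.4 CPM, and between 5.82 and 57.4 CPM in heat stress libraries, with a median of 30.8 CPM. The groups overlapped, and 1 control was low: animal 14 had 5.18 CPM, below all heat stress libraries, although 7 of 13 control libraries were above every heat stress library. The same RNA of animal 14 had 111 CPM in Takara. The means were 51.8 ± 21.8 CPM in control and 32.2 ± 17.3 CPM in heat stress samples (SD, n = 13 each). The log2 fold change was -0.69 (SE 0.32, 95% confidence interval -1.34 to -0.03, edgeR p = 0.0399, adjusted p = 0.262).

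RBM3 in Lexogen lay between 22.1 and 68.9 CPM in control libraries, with a median of 43 CPM, and between 3.65 and 52.5 CPM in heat stress libraries, with a median of 29.7 CPM. Of the heat stress libraries 4 were below every control library, and animals 15 and 16 were lowest, at 3.65 and 8.59 CPM. The same RNA samples had 83.0 and 92.5 CPM in Takara, near the middle of its heat stress group. The library of animal 15 is the one with the highest total count of all. The means were 43 ± 14.1 CPM in control and 30.7 ± 16.3 CPM in heat stress samples (SD, n = 13 each). The log2 fold change was -0.49 (SE 0.29, 95% confidence interval -1.08 to 0.11, edgeR p = 0.106, adjusted p = 0.427). Without animal 15 it was -0.40 (edgeR adjusted p = 0.484). Of the 11108 genes tested in Lexogen, 0.459% were called lower and 5.09% higher, 0.315% were lower in all 12 pairs and 0.009% were separated completely. Partial separation was not counted over all genes here either.

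The difference between the kits was itself tested in the 24 RNA samples sequenced with both. The test assumed the same spread in both kits for each gene, although the spread was wider in Lexogen, so its intervals are approximate. The Lexogen effect minus the Takara effect was 0.19 for CIRBP (95% confidence interval -0.50 to 0.87) and 0.18 for RBM3 (-0.48 to 0.84), with an edgeR adjusted p of 1 for both. For CIRBP the separate fits differed in the other direction (-0.69 in Lexogen and -0.56 in Takara). They also used RNA samples sequenced with a single kit and had no block for the RNA sample. A call in Takara and none in Lexogen was not shown to be a difference between kits, and the intervals leave room for a difference as large as the effects. Of 13354 genes in that test 0 were called and 526 had an unadjusted p under 0.05.

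The spread between the libraries of a group was wider in Lexogen. The coefficient of variation of RBM3 among Takara libraries was 8.26% in control and 19.3% in heat stress samples, and that of CIRBP was 13.1% and 25.6%. In Lexogen it was 32.9% and 53.2% for RBM3 and 42.1% and 53.6% for CIRBP. Counting error at the median count of each group was between 2.44% and 6.71%. The counts behind CIRBP ran from 375 to 2720 per library in Takara and from 31 to 2709 in Lexogen, and those behind RBM3 from 308 to 3182 and from 33 to 642. The reads carry no molecular identifiers, so these limits cover counting error only. Over all genes the standard error of the change had a median of 0.185 in Takara and 0.417 in Lexogen on the log2 scale.

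**Figure D2:**
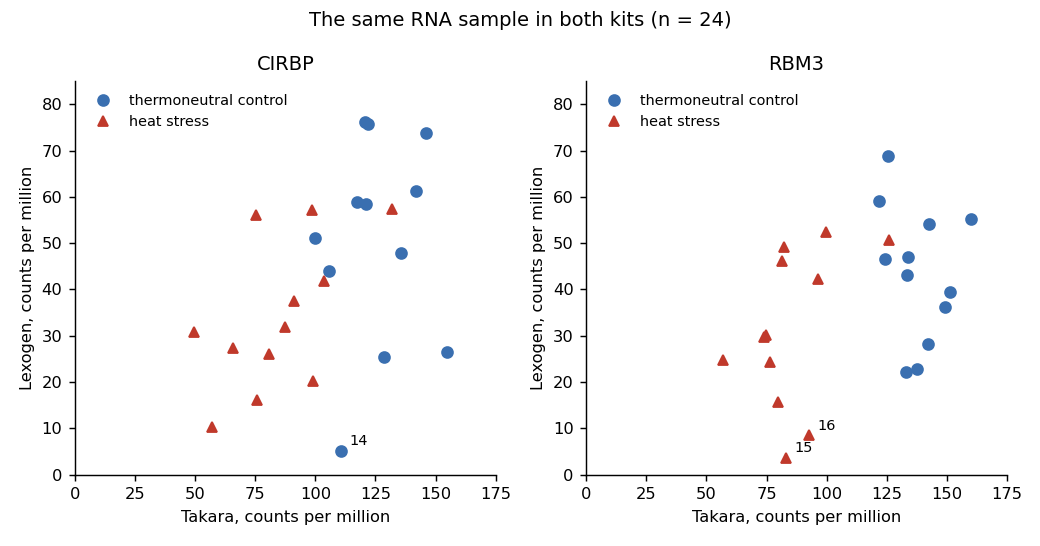
Level of CIRBP (left) and RBM3 (right) in Takara (horizontal, CPM) against Lexogen (vertical, CPM) in the 24 RNA samples of both kits in the comparison of the times, with circles for control and triangles for heat stress. Numbers mark animals under 10 CPM in Lexogen: animal 14 for CIRBP, and animals 15 and 16 for RBM3, all of which had over 80 CPM in Takara.

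Per animal, RBM3 in Takara changed by -0.70 ± 0.24 on the log2 scale (SD, 12 pairs), from -1.13 in animal 40 to -0.34 in animal 3. CIRBP changed by -0.60 ± 0.30 (SD, 12 pairs), from -1.29 in animal 18 to -0.21 in animal 15. Both gave p = 0.000488 in a two-sided exact sign-change permutation test, the smallest p that 12 pairs allow (0.000977 after adjustment over 4 tests). In Lexogen the changes were -0.76 ± 1.63 for CIRBP (exact permutation p = 0.135, adjusted p = 0.151) and -0.49 ± 1.07 for RBM3 (exact permutation p = 0.151, adjusted p = 0.151). Here the changes of single animals ran from -3.36 to 2.58 for CIRBP and from -2.76 to 0.89 for RBM3.

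CIRBP in Lexogen had mean changes of opposite sign in the series of sample numbers. All 7 series 1 animals fell, by a mean of -1.82 (exact permutation p = 0.0156, the smallest that 7 pairs allow). Of the 5 animals in series 2 with both times, animals 14, 16, 32 and 36 had a higher CIRBP level after heat and animal 3 a lower one, with a mean change of 0.73 (exact permutation p = 0.313). In Takara the same 4 animals all fell, by -0.34, -0.50, -0.85 and -0.23. The edgeR test of series by time in Lexogen gave a difference of 1.54 for CIRBP (95% confidence interval 0.30 to 2.78, p = 0.0165), which did not pass adjustment over all genes (adjusted p = 0.466).

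For RBM3 the mean change was below 0 in both series. In Lexogen this change was -0.26 in series 1, with 6 of 7 animals lower, and -0.80 in series 2, with 3 of 5 lower (exact permutation p = 0.266 and 0.375). In Takara every animal of both series fell for both genes: RBM3 by -0.82 and -0.57, and CIRBP by -0.70 and -0.49 (6 pairs each, exact permutation p = 0.0313, the smallest that 6 pairs allow). The Takara differences between series, 0.25 for RBM3 (95% confidence interval -0.12 to 0.61) and 0.16 for CIRBP (-0.29 to 0.62), did not pass the edgeR test (adjusted p = 0.518 and 0.774).

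**Figure D3:**
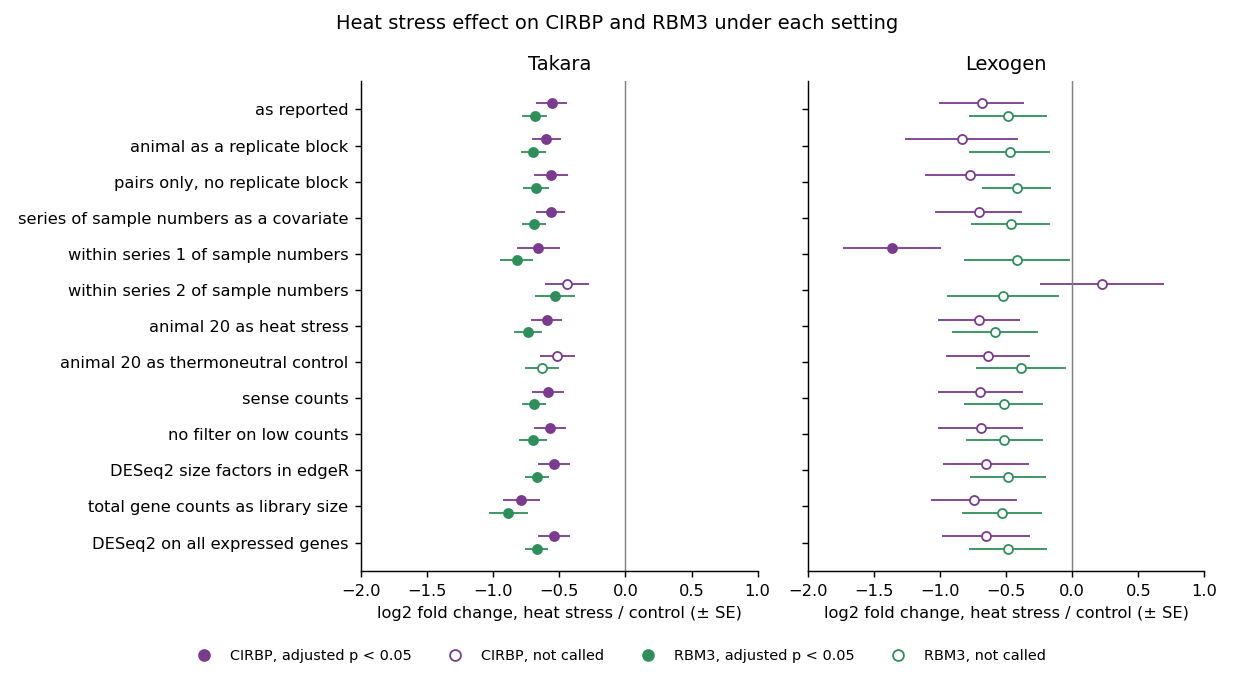
Log2 fold change of heat stress over control (horizontal, ± SE) for CIRBP (purple) and RBM3 (green) in each kit, as reported and under 12 other settings, with filled points for an adjusted p under 0.05. In Takara every point lies below 0, and CIRBP within series 2 and both genes with animal 20 taken as a control are not called; in Lexogen only CIRBP within series 1 is called, at -1.37, and CIRBP within series 2 lies above 0, at 0.23.

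HSPA1A and HSPH1, the heat-inducible chaperones of the HSP70 and HSP110 families, moved opposite to the cold-inducible pair in Takara. In Lexogen both chaperones were called higher, and neither CIRBP nor RBM3 was called. HSPA1A in Takara lay between 15.9 and 41.7 CPM in control libraries (median 19.3 CPM) and between 29.3 and 1040 CPM in heat stress libraries (median 54.2 CPM), where animal 18 was far above the others. Its level rose in 12 of 12 pairs, with a log2 fold change of 2.51 (SE 0.50, edgeR adjusted p = 0.000821), and by 2.57 in Lexogen (adjusted p = 0.00108). HSPH1 rose by 1.28 in Takara (SE 0.22, edgeR adjusted p = 0.000371), in 11 of 12 pairs, and by 1.39 in Lexogen (adjusted p = 0.00813). In Lexogen HSPA1A was lower after heat in animal 29 (-0.73), and HSPH1 in animals 12, 16 and 36 (-0.33, -0.89 and -0.23). Without animal 18 the HSPA1A change was 1.32 in Takara and 1.72 in Lexogen (edgeR adjusted p = 0.0013 and 0.00364). HSPH1 without animal 18 stood at 1.02 and 0.90 (edgeR adjusted p = 0.000652 and 0.0388). With the animal as a block, HSPH1 in Lexogen was not called (1.02, adjusted p = 0.143), in a fit that called 63 of all genes. The annotation holds HSPA1A as a single gene, with HSPA1B as a synonym, and only uniquely mapped reads were counted, so the HSPA1A level is uncertain where reads also match a near-identical copy.

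In Takara the animals with the larger rise of HSPA1A had the larger fall of CIRBP. Pearson's r over the 12 animals was -0.86 (permutation p = 0.00188, adjusted over 12 relations 0.0226) and Spearman's rho was -0.81 (permutation p = 0.00228, adjusted p = 0.0274). Animal 18 had both the largest HSPA1A rise, 5.36 on the log2 scale, and the largest CIRBP fall. Without animals 7 and 18, the farthest from the median HSPA1A change, r was -0.80 (permutation p = 0.00716). Within series 1 r was -0.94 (6 animals, exact permutation p = 0.00833), and within series 2 it was -0.58 (6 animals, exact permutation p = 0.294), so in the second the relation was not shown. With total counts in place of TMM, r was -0.74 and did not pass adjustment (permutation test, adjusted p = 0.146). Over the 12 Lexogen animals r was 0.34 (permutation p = 0.284, adjusted p = 0.486), with the opposite sign.

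The other relations did not pass. CIRBP against HSPH1 in Takara gave r = -0.76 (permutation p = 0.00956, adjusted p = 0.0574) and rho = -0.57 (permutation p = 0.0601, adjusted p = 0.171), and it rested on animals 18 and 36, without which r was -0.32. With total counts it was r = -0.40 (permutation test, adjusted p = 0.407). RBM3 against HSPA1A in Takara gave r = -0.45 (permutation p = 0.157, adjusted p = 0.363) and rho = -0.72 (permutation p = 0.0108, adjusted p = 0.0555). Within the series that RBM3 relation was r = -0.06 in series 1 and -0.89 in series 2 (6 animals each, exact permutation p = 0.903 and 0.0167). RBM3 against HSPH1 in Takara gave r = -0.42 (permutation p = 0.182, adjusted p = 0.363) and rho = -0.55 (permutation p = 0.0713, adjusted p = 0.171).

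In Lexogen, CIRBP against HSPH1 gave r = -0.28 and RBM3 gave r = 0.17 against HSPA1A and 0.43 against HSPH1, with rho = -0.31, 0.24 and 0.41 (permutation p from 0.150 to 0.584 for r, adjusted p from 0.363 to 0.637). The changes of RBM3 and CIRBP were not shown to go together across animals, with r = 0.27 in Takara (permutation p = 0.397) and r = -0.22 in Lexogen (permutation p = 0.485). With total counts the Takara r was 0.74 (permutation p = 0.00708, adjusted p = 0.085), so the size of this relation depended on the scaling. Their rho was 0.46 and -0.20, and without animals 14 and 23 the Lexogen r was -0.73 (permutation p = 0.0275). Between the kits, the changes of CIRBP gave r = 0.59 and rho = 0.76 over 10 animals (permutation p = 0.0508 and 0.0139, adjusted p = 0.203 and 0.0555). For RBM3 no relation between the kits was shown, with r = -0.07 and rho = 0.08 (permutation p = 0.853 and 0.839).

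**Figure D4:**
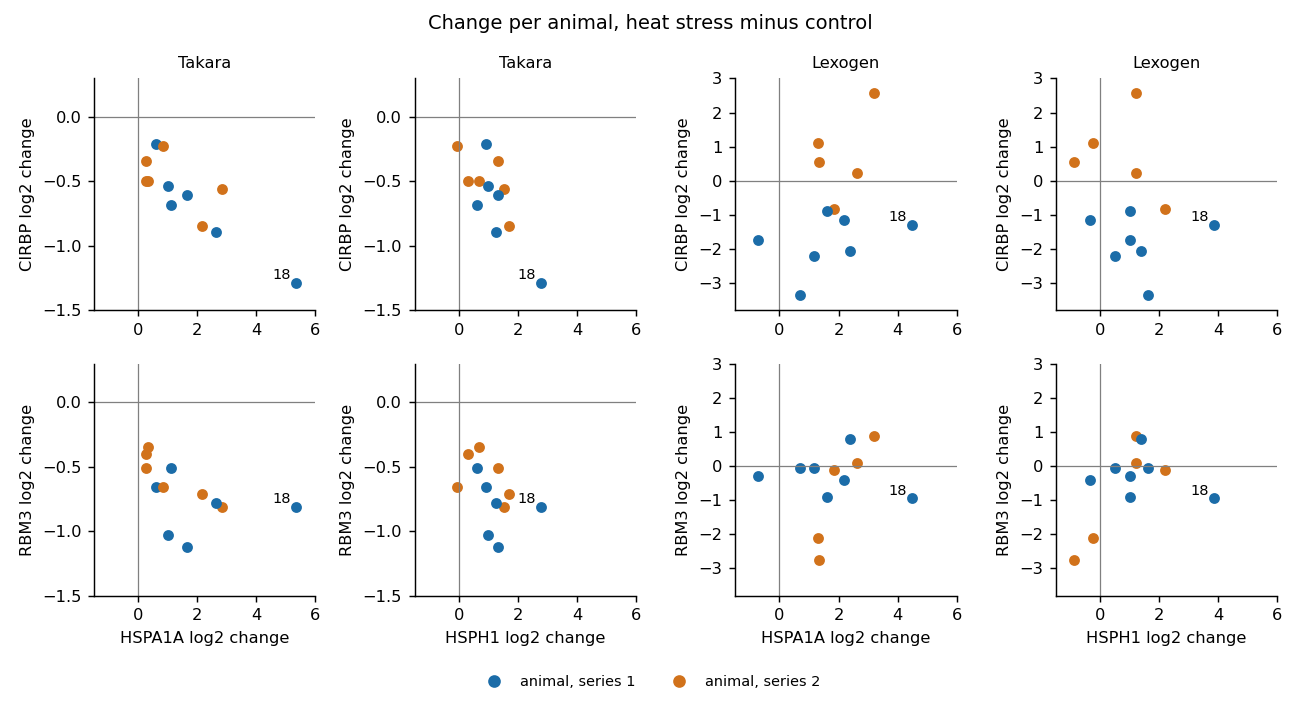
Log2 change per animal (heat stress minus control) of CIRBP (top) and RBM3 (bottom) against that of HSPA1A and HSPH1 in Takara (left 4 panels) and Lexogen (right 4 panels, with a wider vertical scale), coloured by series of sample numbers, with animal 18 marked. CIRBP against HSPA1A in Takara is lower towards the right (r = -0.86, 12 animals), and no such fall is seen in Lexogen (r = 0.34).

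The members were next set beside the genes named like them. Of 40 genes with an RBM number or RBMX name, 36 were tested in each kit. RBM3 and RBM34, a nucleolar protein, were called lower in Takara and 10 were called higher, beside 10.5% and 18.4% of all genes, with a median log2 fold change of 0.01 over the 36 beside -0.05 over all genes. RBM34, named after its values were seen because it completes the count, fell by 0.51 on the log2 scale. The largest rises were those of RBM47 (1.30), which takes part in C-to-U editing, and the splicing factors RBM17 (1.01) and RBM39 (0.72). In Lexogen edgeR called 0 of the 36 lower (3 at an unadjusted p under 0.05) and 2 higher, RBM17 and RBM47, beside 0.459% and 5.09% of all genes. Neither was called with the animal as a block (adjusted p = 0.185 and 0.154). That fit called 63 of all genes in Lexogen, beside 616 without the block.

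**Figure D5:**
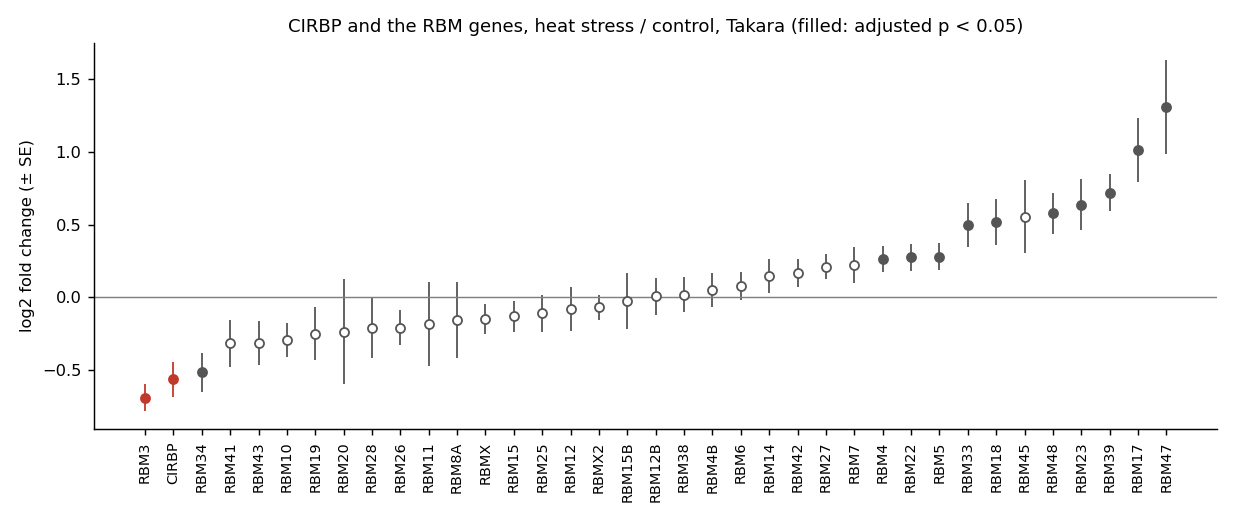
Log2 fold change of heat stress over control in Takara (vertical, ± SE) for CIRBP and the 36 RBM genes tested, in rising order, with filled points for an adjusted p under 0.05 and the cold-inducible pair in red. RBM3 (-0.69) and CIRBP (-0.56) stand at the low end, followed by RBM34 (-0.51), and RBM47 stands at the high end (1.30).

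Of 14 genes known to act on or with CIRBP or RBM3, 1 was called lower and 7 higher in Takara (median 0.21), beside 10.5% and 18.4% of all genes. HNRNPH1, a splicing factor linked to RBM3 and likewise named after its values were seen, fell by 0.40 on the log2 scale. The receptors for CIRBP released from cells rose: TREM1 by 2.14, TLR4 by 1.62 and LY96, the TLR4 co-receptor, by 1.54. RTN3, whose translation RBM3 is known to promote, rose by 0.84. In Lexogen 3 were called, all higher, namely TREM1, TLR4 and LY96 (2.12, 1.19 and 1.10), beside 5.09% of all genes called higher. None of the 3 was called with the animal as a block (adjusted p = 0.240, 0.112 and 0.186), and in Takara 4 of the 7 then were. The blocked fits called 63 of all genes in Lexogen and 3162 in Takara. TREM1 and TLR4 are also typical of neutrophils and monocytes.

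Of 14 clock genes tested, 2 were called lower and 1 higher in Takara, shares close to or below those of all genes (10.5% and 18.4%). Their median was -0.28, beside -0.05 over all genes. At an edgeR unadjusted p under 0.05, 5 were lower and 1 higher, beside 5166 of all 12620 genes in either direction. The clock output factor DBP and the repressor BHLHE41 fell by 0.58 and 0.70 on the log2 scale, and NFIL3, which opposes DBP at shared sites and is also induced in myeloid cells, rose by 2.81. In Lexogen NFIL3 alone of the 14 was called, at 2.12 (adjusted p = 0.0593 with the animal as a block), beside 5.09% of all genes called higher. There 1 clock gene was lower at an unadjusted p under 0.05. Of 19 heat-inducible chaperone genes tested in Takara 11 were called, all higher (median 0.52, beside 18.4% of all genes), with HSPA1A first, followed by DNAJA1 (1.96), a J-domain partner of HSP70, the constitutive HSPA8 (1.38) and HSPA1L (1.38). In Lexogen 3 of 18 were called, all higher, beside 5.09% of all genes (median 0.34, beside -0.08 over all genes). These were HSPA1A, HSPH1 and HSP90AA1 (0.94), an HSP90 chaperone named after its values were seen. With the animal as a block HSPA1A alone was called there, in a fit that called 63 of all genes.

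Some blood cell markers moved at the same time as the members. Over all genes, 18.4% were called higher and 10.5% lower in Takara, and 5.09% and 0.459% in Lexogen. Of 8 neutrophil markers, 7 were called higher in Takara and 6 in Lexogen (7 and 0 in the blocked fit), led in Takara by the protease MMP9 (2.44), the calcium-binding S100A8 (2.30) and S100A9 (2.18), and PADI4 (1.98). Their summed level in Takara ran from 1850 to 8808 CPM in control and from 2034 to 39275 CPM in heat stress libraries, with medians of 4925 and 16364 CPM. Of 8 T cell markers, 3 were called lower in Takara, the T cell receptor chains CD3E (-0.55), CD3D (-0.48) and CD3G (-0.45), and 6 were lower at an unadjusted p under 0.05. The summed T cell markers had medians of 1173 CPM in control and 865 CPM in heat stress libraries (ranges 942 to 1839 and 602 to 1413 CPM).

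Of 7 B cell markers the kinase BLK (-0.98) was called lower in Takara, beside 10.5% of all genes. At an unadjusted p under 0.05, 3 B cell markers were lower. With the animal as a block 3 were called lower, beside 1281 of all genes called lower in that fit. The summed B cell markers had medians of 717 and 508 CPM (ranges 480 to 846 and 195 to 856 CPM). Of 5 monocyte markers CD163 (1.62), a scavenger receptor, was called higher in Takara, beside 18.4% of all genes. Of 5 platelet and 2 erythroid markers tested in Takara, edgeR called 0, and 0 had an unadjusted p under 0.05. In Lexogen it called 0 markers of T cells, B cells, monocytes, platelets or red cells, with an unadjusted p under 0.05 for 1 monocyte and 1 erythroid marker, both higher. The summed T cell markers had medians of 339 and 267 CPM there. In blood, fewer cells of a type and less RNA per cell cannot be told apart, for the markers or for CIRBP and RBM3.

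CIRBP and RBM3 were also expressed relative to the summed lymphocyte markers of the same library, a comparison chosen after the data were seen. Such a ratio cannot separate cell numbers from RNA per cell, since the markers carry both. Relative to T cell markers in Takara, RBM3 changed by -0.31 per pair, with 9 of 12 animals lower (exact permutation p = 0.0176), and CIRBP by -0.21, with 8 of 12 lower (exact permutation p = 0.160). Relative to B cell markers, RBM3 changed by -0.21 and CIRBP by -0.11, with 7 of 12 animals lower for both (exact permutation p = 0.170 and 0.524). These ratios were smaller than the changes in CPM, and of the 4 only that of RBM3 to T cell markers had a p under 0.05, unadjusted. In Lexogen the 4 ratios ran from -0.46 to 0.0027 (exact permutation p from 0.408 to 0.989). The part of cell composition in the changes was not tested.

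The genes whose levels were most like those of each member were found over the 26 libraries of a kit among 9663 genes with a symbol tested in both kits, by the mean over the kits of Pearson's r of log2 CPM. This likeness is a description, since the libraries include both times and share their composition. Genes picked this way tend to change between the times as the member does, so their calls are not separate results. For CIRBP they included NQO2, a quinone reductase (0.75), PET100, a cytochrome c oxidase assembly factor (0.73), and the histone genes H2BC12 (0.72) and H4C8 (0.70). These 4 were called lower in Takara, from -0.46 for PET100 to -1.17 for H2BC12, and none was called in Lexogen.

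For RBM3 they were the ribosomal protein genes RPS13 (0.77), RPL3 (0.73) and RPL9 (0.73), CD247, a chain of the T cell receptor complex (0.73), and the RNA-binding protein HNRNPR (0.72). These too were all called lower in Takara, from -0.28 for HNRNPR to -0.57 for RPL9, and none was called in Lexogen. In the blocked fit of Takara HNRNPR was not called (-0.27, adjusted p = 0.0678). The members were not among each other's nearest genes: RBM3 ranked 935 for CIRBP, and CIRBP ranked 1564 for RBM3. Their levels went together in Takara (r = 0.72 over 26 libraries) and not in Lexogen (r = 0.03).

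The tested genes next to CIRBP and RBM3 had changes above 0. MIDN, which lies 9150 bases before CIRBP and encodes a protein of the proteasome pathway, had a log2 fold change of 0.56 in Takara (edgeR adjusted p = 0.0931) and rose by 1.40 in Lexogen (adjusted p = 0.00243), or 1.15 with the animal as a block (adjusted p = 0.0562). FAM174C, 982 bases after CIRBP, rose by 0.31 in Takara (adjusted p = 0.0262) and stood at 0.15 in Lexogen (adjusted p = 0.923). Beside RBM3, TBC1D25 lies 12768 bases before it and stood at 0.06 in Takara (adjusted p = 0.819), and WDR13 lies 12451 bases after it and stood at 0.24 in Takara (adjusted p = 0.0758) and 0.35 in Lexogen (adjusted p = 0.841).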

How the data were processed

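Per the labels and the study's methods, the authors used Trimmomatic 0.39 for trimming and STAR 2.7.10b for mapping to ARS-UCD2.0, and deposited raw counts of uniquely mapped reads per gene in unstranded, sense and antisense columns. FastQC 0.11.9 and MultiQC 1.14 are also named. The unstranded counts were used here, without the 4 summary totals of each file. Each kit was fitted alone with edgeR 4.0.16 in R 4.3.3 (filterByExpr, TMM, quasi-likelihood test of time, Benjamini-Hochberg over all genes). CPM on the log2 scale had a prior count of 2. Pair and correlation tests were exact or permutation tests.

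Same-numbered libraries came from the same animal and were paired in the per-animal tests. The edgeR fit had no block, as in the study, and the fit with the animal as a block was an alternative. The correlation of their centred gene levels was above 0.1 in 11 of 12 animals in Takara (median 0.232) and 2 of 12 in Lexogen (median 0.0208).

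CIRBP and RBM3 and the gene lists were chosen with earlier results of these data known. Other genes were named by rule: HSPA1A and HSPH1, the 5 genes most alike per member (1 is not reported here), up to 4 called members of each list with the largest change in Takara, and neighbouring genes. Other alternatives were DESeq2 1.42.0, other scalings, no filter, sense counts, animal 20 at either time, each series, and each animal left out. The steps were tested on simulated data.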

Additional observations from a re-analysis of the deposited data

Results flagged for a closer look

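The 2 libraries of animal 20, which entered no comparison, had levels of HSPA1A and HSPH1 above all control libraries. HSPA1A was at 3200 CPM in Takara and 1783 CPM in Lexogen, where the highest control libraries had 41.7 and 30.9 CPM. HSPH1 was at 397 and 259 CPM, beside 35.2 and 39.9 CPM in the highest control libraries. In the same libraries RBM3 was at 50.1 CPM in Takara and 2.82 CPM in Lexogen, below all libraries in the comparison, and CIRBP was at 61.0 and 26.2 CPM, within the range of the heat stress libraries. No time was assigned to animal 20 from these levels.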

How the results depend on the processing

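In Takara the change was negative in 26 of 26 alternatives for CIRBP and for RBM3. Calls were lost with animal 20 taken as a control (CIRBP -0.52 and RBM3 -0.63, adjusted p = 0.0547 for both) and, for CIRBP, within series 2 (-0.44, adjusted p = 0.105). Animal 20 as a control left 0 genes called in Takara by edgeR (3804 at an unadjusted p under 0.05) and 2 in Lexogen. Within series 2 there were 931 in Takara and 0 in Lexogen (1275 at an unadjusted p under 0.05), beside 3646 and 616 as reported. Lexogen CIRBP was -1.37 within series 1 (adjusted p = 0.0414) and 0.23 within series 2 (adjusted p = 0.924). The cause was not tested.

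Lexogen counts of called genes were 63 with the animal as a replicate block (1584 at an unadjusted p under 0.05), 1006 with DESeq2, 3273 without a filter and 402 within series 1. Leaving out each animal gave 348 to 747 genes, with 406, 389, 348 and 368 without animals 16, 18, 36 and 40. It changed no call of either member: Takara CIRBP ran from -0.61 to -0.51 and RBM3 from -0.73 to -0.66. Paired by the replicate block, Takara CIRBP was -0.60 (adjusted p = 0.00735) and RBM3 -0.70 (adjusted p = 0.0026), and Lexogen CIRBP was -0.84 (adjusted p = 0.386) and RBM3 -0.47 (adjusted p = 0.515). The block changed no call of CIRBP or RBM3, while Takara had 3162 called genes with it.

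With total counts, the series difference of RBM3 in Lexogen was 0.12, r of CIRBP against HSPA1A in Takara was -0.74, and r of RBM3 between kits was 0.46. In Takara, r of CIRBP against HSPH1 was -0.79 with sense counts (permutation test, adjusted p = 0.0436) and -0.40 with total counts (adjusted p = 0.407). With total counts r of RBM3 was -0.0045 against HSPH1 and 0.74 against CIRBP (permutation test, adjusted p = 0.984 and 0.085). Added after seeing the data, the Lexogen change of CIRBP per pair without animal 14 was -1.06 (exact permutation p = 0.0234). Relative to T and B cell markers, CIRBP in Takara was -0.21 and -0.11, and RBM3 relative to B cell markers was -0.21 in Takara and 0.0027 in Lexogen.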
